A study of Mus musculus with 12 samples.

Results

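The genes described here are 8 mouse genes of the transcription burst at the 2-cell stage, namely Zscan4c, Zscan4d, Zscan4f, Tcstv1, Tcstv3, Zfp352, Tdpoz3 and Tdpoz4. They were chosen by name, and the probes matched to them through RefSeq were read in 12 single embryos at the morula stage. At this stage the embryo is a compacted ball of blastomeres that has not yet formed a cavity. Of the 8 genes, 4 had a probe (8 probes of 41174 on the array), and 3 of these (Tcstv1, Tcstv3 and Zscan4c) passed a filter on dim probes and were tested among 19059 features. Zfp352 had 2 probes that did not pass that filter and is described by its signals. No probe was matched through RefSeq to Zscan4d, Zscan4f, Tdpoz3 or Tdpoz4, and these 4 genes are not analysed here.

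In the mouse, the embryo's own genome is switched on broadly at the 2-cell stage, and a set of genes in multi-copy families is transcribed strongly there for a short time and then silenced as cleavage goes on. Many of these genes lie near endogenous retroviruses whose ends act as promoters at this stage, and the homeodomain factor Dux activates many of them. A few cells in mouse embryonic stem cell cultures enter a state that expresses the same genes, and nuclei transferred from somatic cells are known to switch on parts of this programme incompletely. Zscan4 proteins carry a SCAN domain and zinc fingers and act on telomeres in mouse embryonic stem cells. Tcstv1 and Tcstv3 are named for the 2-cell stage and belong to a family that lies together on chromosome 13. Zfp352 encodes a zinc finger protein, and Tdpoz proteins combine a TRAF domain with a POZ domain.

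All embryos were (C57BL/6 x DBA/2) F1 and were cultured in KSOM, an embryo culture medium, for 72 h counted from activation. The siXist clones (4 embryos, all male) were made by transfer of Sertoli cell nuclei and received an siRNA against Xist, the RNA that silences an X chromosome, at 6 to 7 h after activation. The siCont clones (4 embryos, all male) were made in the same way and received a control siRNA. The IVF embryos (embryos 1 and 3 male, embryos 2 and 4 female) came from in vitro fertilisation, and no injection is given for them. Each array read a whole embryo, so fewer cells with a transcript and less of it per cell cannot be told apart. Each embryo gave 1 array after a pair of linear amplification rounds, so the spread within a class includes both embryo and amplification.

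Signals are given as log2 of the processed signal relative to the 75th percentile of the same array, so that 0 is a bright probe and about -8 is the level of probes that were never above background. The 75th percentile was 507 to 1133 signal units, and 50.8% to 61.5% of probes were well above background on an array. The 4 arrays of a class shared 1 slide and 1 scan, so a difference between classes cannot be told apart from one between slides. Xist, the siRNA's target, read 1.72, 1.36, 2.18 and 2.45 in siXist clones 1 to 4, against 5.65, 4.74, 4.94 and 4.56 in siCont clones 1 to 4. In IVF embryos it read 5.17 and 5.24 in the females and -4.92 and -7.04 in the males. Of 10 morula markers, 9 had a probe and all 9 passed the filter, with 7 to 9 of them well above background in any embryo. Pou5f1, the pluripotency factor Oct4, was well above background in all 12. Sox2, another pluripotency factor, was so in 1 of 4 siXist clones, 1 of 4 siCont clones and 4 of 4 IVF embryos.

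The 3 Zscan4 members are near copies of one another, as the bases around their annotated starts show. The 250 bases before each start are given here from RefSeq's promoter table, on GRCm38.p6 and in the direction of transcription, because they show how alike the copies are and how differently the start of Zfp352 is built. Capitals mark TATAAA, the TATA box, in the Zscan4 windows and TAATCC, the core motif bound by OTX-type homeodomain proteins, in the Zfp352 window. The Zscan4c window is chr7:11005495-11005744 on the plus strand, the Zscan4d window chr7:11166149-11166398 on the minus strand and the Zscan4f window chr7:11397665-11397914 on the plus strand. The Zfp352 window is chr4:90218570-90218819 on the plus strand.
Zscan4c: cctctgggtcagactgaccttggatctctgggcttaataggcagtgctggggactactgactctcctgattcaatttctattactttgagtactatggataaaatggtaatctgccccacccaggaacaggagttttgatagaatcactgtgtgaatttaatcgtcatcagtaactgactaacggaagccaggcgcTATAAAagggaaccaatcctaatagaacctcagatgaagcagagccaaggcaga
Zscan4d: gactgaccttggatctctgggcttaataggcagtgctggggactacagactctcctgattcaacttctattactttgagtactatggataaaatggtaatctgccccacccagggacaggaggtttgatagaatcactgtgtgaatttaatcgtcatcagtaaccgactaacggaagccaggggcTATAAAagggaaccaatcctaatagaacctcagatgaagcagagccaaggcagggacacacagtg
Zscan4f: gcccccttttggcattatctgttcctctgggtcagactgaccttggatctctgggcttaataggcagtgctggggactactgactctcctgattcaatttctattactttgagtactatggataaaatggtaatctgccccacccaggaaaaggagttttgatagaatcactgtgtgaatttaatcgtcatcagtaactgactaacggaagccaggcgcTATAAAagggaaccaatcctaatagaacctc
Zfp352: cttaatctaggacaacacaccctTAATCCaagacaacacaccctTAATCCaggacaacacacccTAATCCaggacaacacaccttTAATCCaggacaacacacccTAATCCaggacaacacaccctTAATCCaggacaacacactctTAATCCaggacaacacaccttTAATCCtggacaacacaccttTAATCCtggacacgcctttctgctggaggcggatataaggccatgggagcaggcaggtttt

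For the alignment the whole promoter sequences were used, which hold the printed 250 bases and run on past the start. At the best ungapped alignment, those of Zscan4c and Zscan4f were identical at 275 of 277 bases (99.28%). Zscan4c and Zscan4d matched at 281 of 289 bases (97.23%), and Zscan4d and Zscan4f at 259 of 266 (97.37%). Each Zscan4 window held 1 TATAAA in the sense direction, starting 54 bases before the start in Zscan4c, 65 in Zscan4d and 31 in Zscan4f. Searched on both strands, TATAAA was present in 12.37% of the 32851 promoter windows of the same length. The Zfp352 window held no TATAAA and 9 copies of TAATCC, all in the sense direction, the highest number in any of the 32851 windows, of which 6.252% held at least 1 copy. The Tdpoz4 window held neither motif. These matches describe the letters in the windows and say nothing of the factors. Probe sequences were not used here, so whether the probes named for Zscan4c also pick up Zscan4d, Zscan4f or other copies, or those for Tcstv1 and Tcstv3 other Tcstv genes, was not tested. RefSeq also lists Zscan4d as an older name of Zscan4c.

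Tcstv3 and Tcstv1 were the members with clear signal at the morula stage, and both spanned a wide range between clones. Tcstv3, a member of the 2-cell family on chromosome 13, had 1 probe (A_51_P143200). It read -0.69, -1.52, -8.15 and -4.47 in siXist clones 1 to 4, and 0.93, 2.30, 3.0 and -4.05 in siCont clones 1 to 4. In IVF embryos 1 to 4 it read -0.51, -0.96, 0.36 and 0.72. It was well above background in 11 of the 12 embryos, with siXist clone 3 as the exception. Among the siCont clones, 1 to 3 lay above every IVF embryo and siCont clone 4 lay below all of them, while siXist clones 3 and 4 were the lowest of the 12 and siXist clones 1 and 2 were close to the lower IVF embryos.

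Tcstv1, the second tested gene of that family, had 3 probes, all of which passed the filter. Its brightest probe (A_51_P481777) read -2.91, -3.02, -6.84 and -5.19 in siXist clones 1 to 4, and -0.91, 1.22, 2.54 and -6.63 in siCont clones 1 to 4. In IVF embryos 1 to 4 it read -2.17, -2.08, -1.31 and -1.24. siXist clone 3 and siCont clone 4 were not well above background on this probe, and the other 10 embryos were. All siXist clones lay below all IVF embryos, whereas the siCont clones overlapped both other classes because siCont clone 4 was below all IVF embryos and siCont clones 1 to 3 above them.

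**Figure D1:**
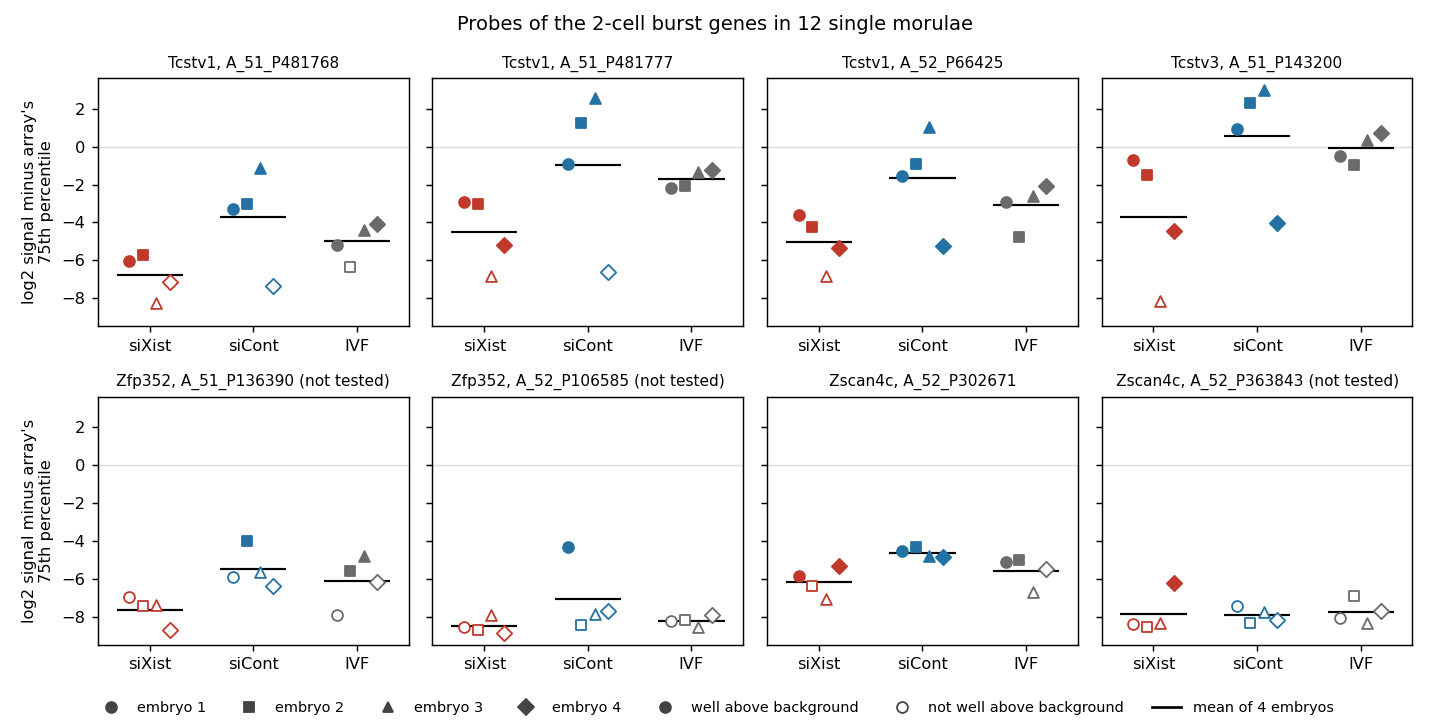
Signals of the 8 probes matched to the 2-cell burst genes, as log2 signal relative to the array's 75th percentile, for siXist clones, siCont clones and IVF embryos. Filled points are well above background and open points are not. The marker shape gives the embryo's number and the black line is the mean of 4 embryos. The Tcstv panels show siCont clones 1 to 3 high and siCont clone 4 low, with siXist clone 3 lowest on every Tcstv probe.

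The other Tcstv1 probes placed the embryos in much the same order. A_52_P66425 read -3.62, -4.23, -6.83 and -5.34 in siXist clones 1 to 4, -1.58, -0.94, 1.03 and -5.24 in siCont clones 1 to 4, and -2.91, -4.75, -2.61 and -2.07 in IVF embryos 1 to 4. A_51_P481768 read -6.02, -5.72, -8.25 and -7.16 in siXist clones 1 to 4, -3.30, -3.05, -1.11 and -7.36 in siCont clones 1 to 4, and -5.16, -6.34, -4.40 and -4.07 in IVF embryos 1 to 4. On all 3 probes siCont clones 3, 2 and 1 were, in that order, the 3 highest embryos and siXist clone 3 was the lowest. IVF embryo 2 lay among the siXist clones on these probes and not on the brightest one.

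**Figure D2:**
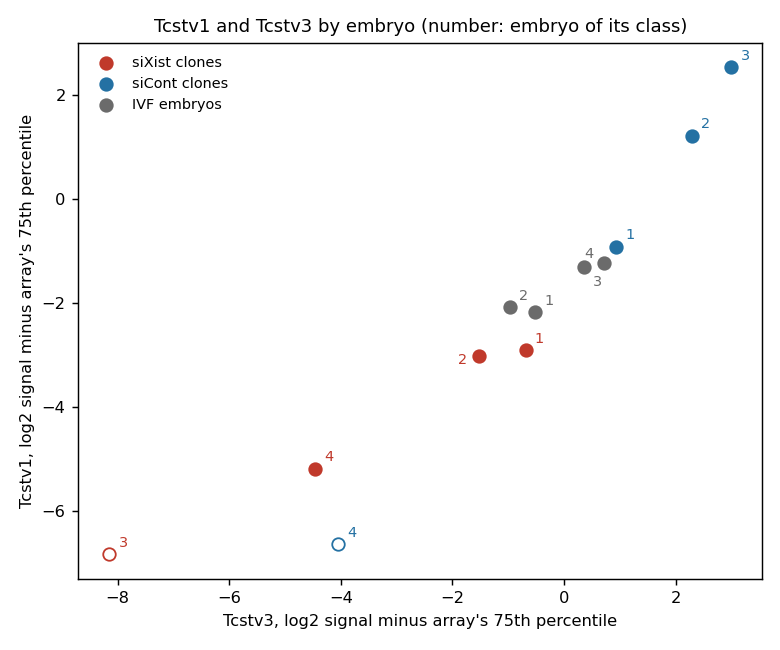
Tcstv1 (brightest probe) against Tcstv3 in the 12 embryos, both as log2 signal relative to the array's 75th percentile; each point is 1 embryo, numbered within its class, and open points were not well above background on at least 1 of both probes. Both genes place siXist clone 3 at the lower end (-8.15 for Tcstv3, -6.84 for Tcstv1) and siCont clone 3 at the upper end (3.0 and 2.54), with siCont clone 4 apart from the other siCont clones.

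Across the 12 embryos, Tcstv1 and Tcstv3 followed each other with a Pearson r of 0.95 and a Spearman rho of 0.97, a description over arrays that share class, slide and scaling. The span from the lowest to the highest embryo was 11.1 log2 units for Tcstv3 and 9.38 for Tcstv1. The 75th percentile used for scaling was 1133 in siXist clone 3, the highest of the 12 arrays, where both genes were lowest, and 507 in siCont clone 3, the lowest of the 12, where both genes were highest. The log2 ratio of these percentiles is 1.16.

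The mean of Tcstv3 was -3.70 ± 3.38 in siXist clones, 0.55 ± 3.18 in siCont clones and -0.10 ± 0.77 in IVF embryos (log2 signal, SD, n = 4 each). The difference of siXist minus siCont was -4.25 ± 1.83 in log2 (SE), and it did not pass the threshold of 0.05 (limma, adjusted p = 0.346 over all features). For Tcstv1 the means were -4.49 ± 1.88 in siXist clones, -0.95 ± 4.05 in siCont clones and -1.70 ± 0.49 in IVF embryos (SD, n = 4 each), and the difference of siXist minus siCont was -3.54 ± 1.75 (SE; limma, adjusted p = 0.394). The 3 Tcstv1 probes gave differences of -3.54, -3.33 and -3.09, which come from the same embryos and are no separate evidence. Single embryos moved these values: without siCont clone 4 the differences became -5.44 for Tcstv1 and -5.78 for Tcstv3, without siCont clone 3 that of Tcstv1 became -2.38, and without siXist clone 3 that of Tcstv3 became -2.77.

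Against IVF embryos, siCont clones differed by 0.65 ± 1.83 for Tcstv3 (SE; limma, adjusted p = 0.901) and by 0.76 ± 1.75 for Tcstv1 (adjusted p = 0.876). The sign of both turned without siCont clone 3 (-0.17 and -0.41) and on the scale of the authors' value table (-0.45 and -0.34). On that scale the median of all features was -1.13, and relative to it the values were 0.68 and 0.79. Without siCont clone 4 the differences were 2.18 for Tcstv3 and 2.65 for Tcstv1. siXist clones differed from IVF embryos by -3.60 ± 1.83 for Tcstv3 (SE; limma, adjusted p = 0.413) and by -2.79 ± 1.75 for Tcstv1 (adjusted p = 0.503). Without siXist clone 3 that of Tcstv3 became -2.12. The comparisons share classes, and their values are given side by side only.

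The spread between embryos of a class was wide for both Tcstv genes in clones and ordinary in IVF embryos. Among siCont clones the SD of Tcstv1 was larger than that of 98.2% of all features and that of Tcstv3 larger than 93.6%. Among siXist clones the shares were 83.9% for Tcstv1 and 96.1% for Tcstv3, and among IVF embryos 47.0% and 64.8%. The median SD over all features was 0.725 in siXist clones, 0.782 in siCont clones and 0.525 in IVF embryos, so clones were the more variable classes for features at large as well. The difference in spread between classes was not tested.

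**Figure D3:**
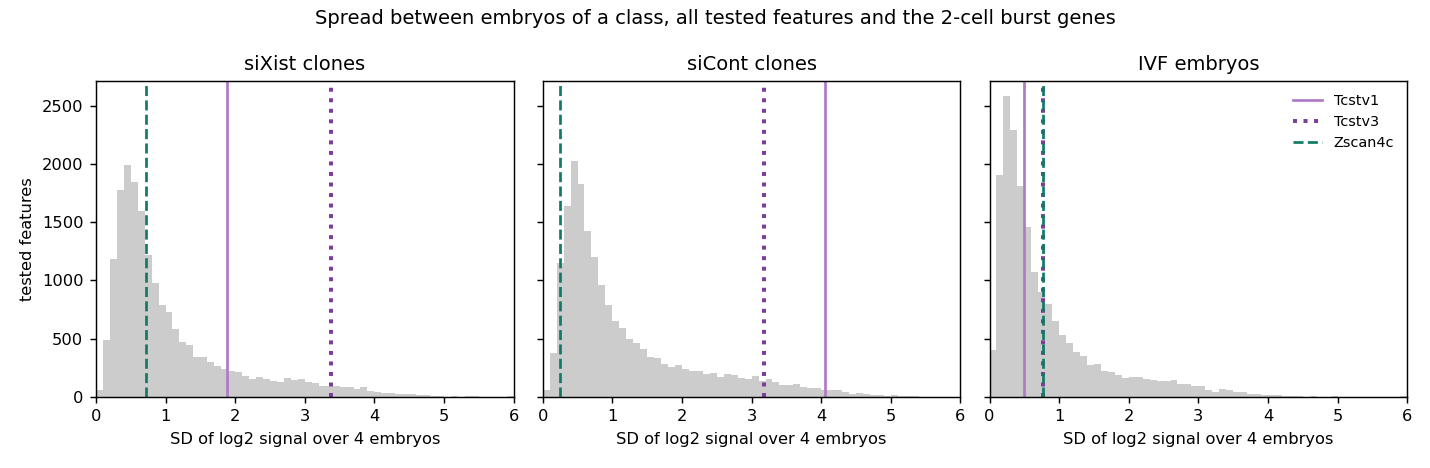
Number of tested features by their SD of log2 signal over the 4 embryos of a class (bars 0.1 wide, the last holding all larger values), for siXist clones, siCont clones and IVF embryos, with vertical lines at Tcstv1, Tcstv3 and Zscan4c. The Tcstv lines lie far right in both classes of clones (SD 1.88 to 4.05) and near the middle in IVF embryos (0.49 and 0.77), whereas Zscan4c lies far left in siCont clones (0.25).

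Zscan4c, the zinc finger gene of the Zscan4 cluster on chromosome 7, was dim in every class, with its highest readings in siCont clones. Its tested probe (A_52_P302671) read -5.87, -6.37, -7.04 and -5.35 in siXist clones 1 to 4, and -4.53, -4.31, -4.79 and -4.84 in siCont clones 1 to 4. In IVF embryos 1 to 4 it read -5.12, -5.02, -6.68 and -5.50. It was well above background in 2 of 4 siXist clones, 4 of 4 siCont clones and 2 of 4 IVF embryos. The 4 siCont clones lay above every embryo of the other classes, while siXist clones and IVF embryos overlapped. The probe passed the filter, which asks for 3 of 4 embryos of a class above background, only through the siCont clones, so its being highest there is a description and supports nothing.

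The means of Zscan4c were -6.15 ± 0.72 in siXist clones, -4.62 ± 0.25 in siCont clones and -5.58 ± 0.76 in IVF embryos (SD, n = 4 each). The difference of siXist minus siCont was -1.54 ± 0.45 (SE, limma adjusted p = 0.297). That of siCont minus IVF was 0.96 ± 0.45 (adjusted p = 0.386) and that of siXist minus IVF was -0.57 ± 0.45 (adjusted p = 0.583). Because the filter kept the probe through its siCont values, both differences that involve siCont clones are descriptions only. The 7552 probes that were never above background also lay lower in siXist clones, at -8.58 ± 0.22, against -8.01 ± 0.24 in siCont clones and -8.00 ± 0.26 in IVF embryos (median of those probes per array, then mean and SD, n = 4 each), and their part in the result was not tested. With the normexp background correction and quantile scaling the difference of siXist minus siCont for Zscan4c was -0.36, on the scale of the authors' value table it was -0.40, and with dim values raised to a common floor it was -0.98. That of siCont minus IVF was 0.29 with normexp and quantile scaling and turned to -0.13 on the scale of the authors' value table. On that scale the median of all features was 0.93 in siXist minus siCont and -1.13 in siCont minus IVF. Relative to these medians Zscan4c read -1.33 and 1.00.

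The second Zscan4c probe (A_52_P363843) did not pass the filter. It read -8.39, -8.55, -8.34 and -6.20 in siXist clones 1 to 4, -7.44, -8.34, -7.77 and -8.17 in siCont clones 1 to 4, and -8.05, -6.92, -8.35 and -7.70 in IVF embryos 1 to 4, and only siXist clone 4 was well above background. With 11 of 12 readings not above background, no order of the classes can be read from this probe. The 5 features with a symbol most like the tested Zscan4c probe, of 12554 compared, were Olfr448, Trmt61a, Olfr559, Srcin1 and Htr1d, with Pearson r of 0.90, 0.90, 0.90, 0.89 and 0.89 over the 12 arrays. They are no genes of the 2-cell lists, and Olfr448 was well above background on 6 arrays only.

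Zfp352, whose window with 9 TAATCC copies is printed above, was at or near background in most morulae. Its brighter probe (A_51_P136390) read -6.96, -7.41, -7.38 and -8.72 in siXist clones 1 to 4, none of them well above background. It read -5.91, -4.01, -5.65 and -6.39 in siCont clones 1 to 4, where siCont clone 2 alone was well above background. In IVF embryos 1 to 4 it read -7.90, -5.60, -4.82 and -6.17, with embryos 2 and 3 well above background. The siXist readings lay below all siCont readings, as was so for 6.22% of the tested features. Since siCont clone 2 alone of these clones was well above background, no order of the classes can be read from this.

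The measured mean of this probe was -7.62 in siXist clones, -5.49 in siCont clones and -6.12 in IVF embryos. Since only 1 of 4 siCont clones and 2 of 4 IVF embryos were above background, and no siXist clone, no fold is given between the classes. With no filter on dim probes the fitted difference of siXist minus siCont was -2.13 and did not pass the threshold (limma, adjusted p = 0.242 over 32244 features). On the second Zfp352 probe (A_52_P106585) siCont clone 1, at -4.33, was the only embryo of 12 well above background, and the others read -8.87 to -7.69.

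Of the 3 tested members, 0 were called at an adjusted p under 0.05 by limma in siXist minus siCont, where 0.0105% of all features were called (2 of 19059). Zscan4c, kept only through the class where it was high, is left out of the counts given for the Tcstv genes. Counts out of 3 members include it, and none of these counts stands for all 8 genes. Of Tcstv1 and Tcstv3, 1 was lower at an unadjusted p under 0.05 (Tcstv3), against 9.5% of all features. For Tcstv1 this depended on the probe. Its brightest probe had an unadjusted p of 0.0709 (limma). With each probe as its own feature, A_51_P481768 had 0.0270 and A_52_P66425 had 0.0233 (limma, adjusted p = 0.345 and 0.342). For both genes the siXist and siCont clones overlapped, while 6.22% of features lay wholly lower. Over all features the median difference was -0.21.

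Of the 3 tested members, 0 were called in siCont minus IVF, where 0.415% of features were called, and 0 had an unadjusted p under 0.05, against 13.6% of features. For both Tcstv genes the siCont clones and the IVF embryos overlapped, while for 5.52% of features the siCont clones lay wholly above. In siXist minus IVF 0 of 3 were called, against 0.577% of features, and 0 had an unadjusted p under 0.05, against 13.9%. Of the Tcstv genes, Tcstv1 had siXist clones wholly below the IVF embryos and Tcstv3 did not, against 9.09% of features. In all clones minus IVF 0 of 3 were called, against 0.908% of features, with 0 at an unadjusted p under 0.05, against 13.4%. The differences were 0.19 for Zscan4c, -1.02 for Tcstv1 and -1.48 for Tcstv3. Without siCont clone 4 those of the Tcstv genes became -0.07 for Tcstv1 and -0.71 for Tcstv3, and without siCont clone 3 that of Tcstv1 became -1.60. That of Zscan4c turned to -0.19 without IVF embryo 3 and to -0.34 on the scale of the authors' value table, where the median of all features was -0.65.

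**Figure D4:**
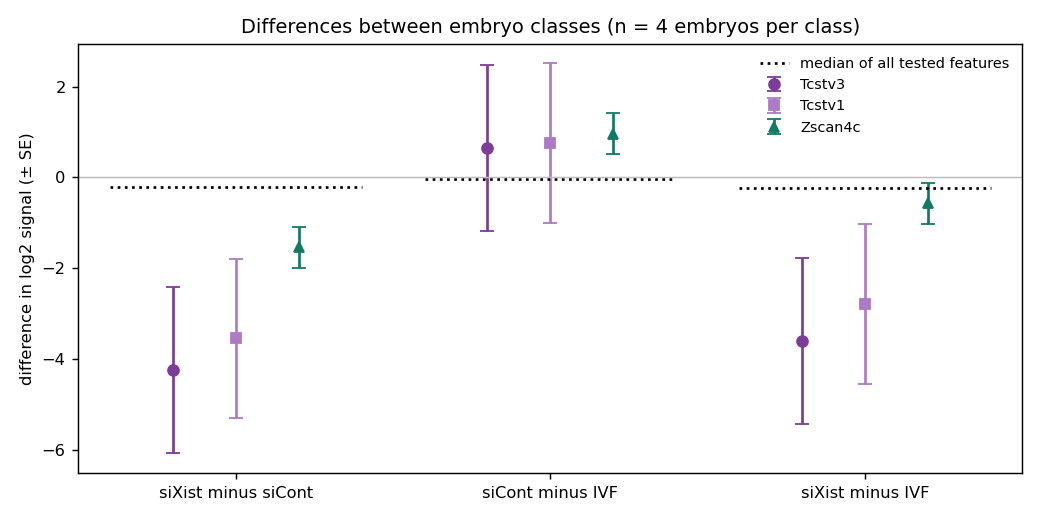
Differences in log2 signal between classes, with SE, for Tcstv3, Tcstv1 and Zscan4c in siXist minus siCont, siCont minus IVF and siXist minus IVF (4 embryos per class); the dotted lines are the medians over all tested features. The Tcstv genes have the larger differences and the larger errors (-4.25 ± 1.83 for Tcstv3 and -1.54 ± 0.45 for Zscan4c in siXist minus siCont), and none passed the threshold.

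The Tcstv genes lie in a run of 31 genes on chromosome 13, from AF067063 to Tcstv3 in RefSeq's order, of which 4 had a probe: AF067063, Tcstv1, Gm20767 and Tcstv3. These neighbours were looked up after their values were known. Gm20767, an uncharacterised 2-cell gene between Tcstv1 and Tcstv3, read -3.67, -4.09, -5.79 and -4.47 in siXist clones 1 to 4, and -1.89, -0.47, 0.96 and -4.70 in siCont clones 1 to 4. In IVF embryos 1 to 4 it read -2.88, -3.61, -2.71 and -2.20, and it was well above background in all 12. The embryos followed much the same order as for Tcstv3, with siXist clone 3 lowest, siCont clone 3 highest and siCont clone 4 below all IVF embryos (Pearson r 0.905 with Tcstv3 over the 12 arrays). Among 12554 features compared, Bod1, Crlf3, Nom1 and Tomm22 had a higher r with Tcstv3 (0.930, 0.918, 0.916 and 0.906). They are in none of the 2-cell lists, so a high r with Tcstv3 was not limited to this run of genes. Members were left out of the features compared, and Tcstv1 of the same run had a higher r with Tcstv3 (0.946). The range was also unlike: Bod1 read 5.66 in siXist clone 3 and 6.69 in siCont clone 3, against -8.15 and 3.0 for Tcstv3.

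AF067063, another 2-cell gene at the far end of that run, differed from its neighbours in part. Its brightest probe (A_51_P512119) read 2.79, 2.68, 0.17 and 3.27 in siXist clones 1 to 4, 3.83, 2.56, 5.89 and 2.73 in siCont clones 1 to 4, and 2.78, 2.87, 2.40 and 3.25 in IVF embryos 1 to 4. siXist clone 3 was again the lowest and siCont clone 3 the highest, but siXist clone 4 and siCont clone 4 lay within the range of the others. Whether these probes share target sequence was not tested.

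Of the Tdpoz family, which sits on chromosome 3, the members Tdpoz3 and Tdpoz4 had no matched probe, and 2 relatives had one. Tdpoz1 came from the list of paralogues, where it was the only one of 11 with a probe (0 called in any comparison); Tdpoz9 was added after its values were seen. Tdpoz1 (A_52_P332044) read -3.95, -3.53, -4.43 and -1.27 in siXist clones 1 to 4, -0.72, -2.70, -0.62 and -4.59 in siCont clones 1 to 4, and -1.33, -1.53, -2.52 and -0.11 in IVF embryos 1 to 4. Tdpoz9 (A_51_P506835) read -2.37, -1.69, -8.82 and 0.13 in siXist clones 1 to 4, 0.76, -2.62, 1.39 and -8.10 in siCont clones 1 to 4, and -0.26, 0.58, -0.21 and 0.95 in IVF embryos 1 to 4. On these probes siXist clone 3 and siCont clone 4 were the 2 lowest of the 12 embryos. The second Tdpoz1 probe (A_52_P378157) read -5.88, -7.00, -6.83 and -2.95 in siXist clones 1 to 4, -2.65, -5.08, -2.45 and -7.03 in siCont clones 1 to 4, and -3.34, -3.78, -4.91 and -2.44 in IVF embryos 1 to 4. On it siXist clone 2 and siCont clone 4 were the 2 lowest, followed by siXist clone 3, and these 3 were not well above background. For Tcstv3 siXist clones 3 and 4 and siCont clone 4 were the 3 lowest, whereas siXist clone 4 was among the brighter embryos on all 3 Tdpoz probes. The difference of siXist minus siCont was -1.14 for Tdpoz1 and -1.05 for Tdpoz9 (limma, adjusted p = 0.598 and 0.847).

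A list of 27 other genes of the 2-cell burst gave 16 with a probe and 14 tested. In siXist minus siCont 0 of 14 were called by limma, and 8 had an unadjusted p under 0.05 (all lower, against 9.5% of all features). There 12 of 14 lay lower, against 60.2% of all features, with a median difference of -1.82 beside -0.21 over all features. Of the 14, 1 (Chit1, a chitinase) passed the filter through siCont clones alone, and it is among those 12 but not among those 8. In siCont minus IVF 0 of 14 were called, and 3 had an unadjusted p under 0.05 (all higher, against 13.6% of features in either direction). Here 12 of 14 lay higher, against 48.1% of all features, with a median of 1.09 beside -0.04. Chit1 is 1 of these 3 and of these 12, so its being higher there supports nothing. In siXist minus IVF 0 were called, and 3 had an unadjusted p under 0.05 (1 higher, 2 lower, against 13.9% of features). Of the 14, 11 lay lower, against 61.7% of all features, with a median of -0.61 beside -0.23. The list shares its embryos, and in part its chromosome run, with the members.

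The list followed the Tcstv genes in part only. Of its 14 tested genes, 3, 2, 4 and 7 lay above their own median of the 12 embryos in siXist clones 1 to 4, 11, 12, 13 and 7 in siCont clones 1 to 4, and 6, 7, 3 and 9 in IVF embryos 1 to 4. siCont clones 1 to 3 were the embryos with the most genes above the median, as they were the highest for both Tcstv genes. siXist clone 4 and siCont clone 4, each with 7, lay within the IVF range of 3 to 9, and siXist clone 3, the lowest for both Tcstv genes, had more genes above the median than siXist clones 1 and 2. The list holds Gm20767 and AF067063 of the same chromosome run, and these counts include Chit1.

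**Figure D5:**
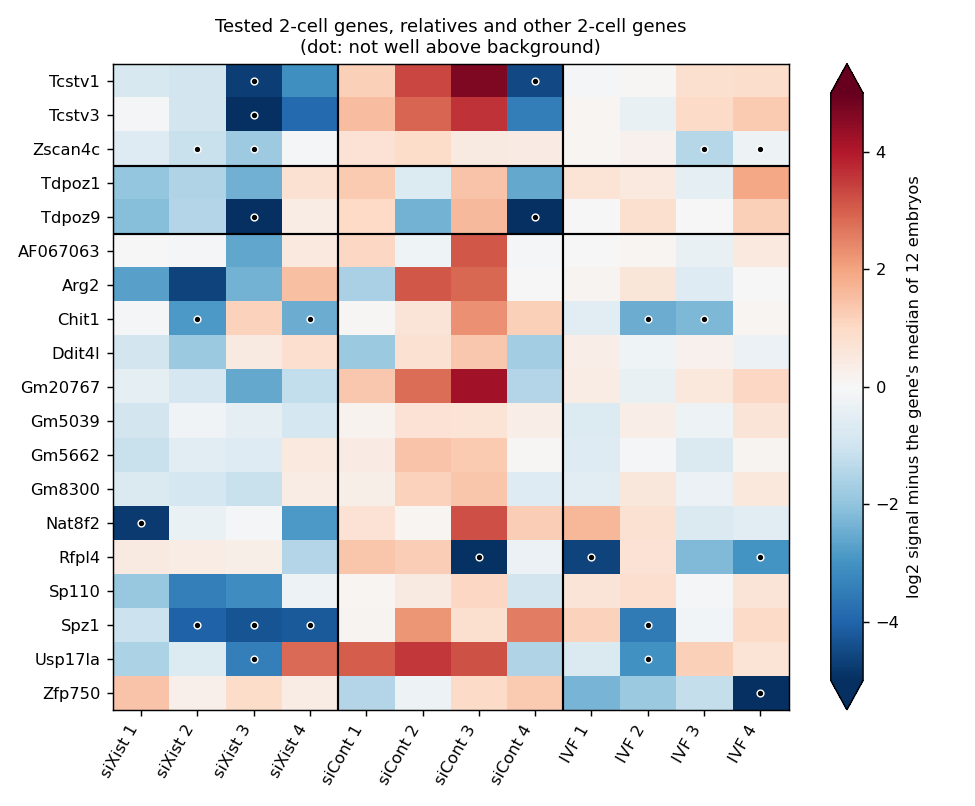
Log2 signal minus the gene's own median of 12 embryos (red higher, blue lower, colours end at 5) for the 3 tested members, the relatives Tdpoz1 and Tdpoz9 and the 14 tested other 2-cell genes, by embryo of the siXist, siCont and IVF classes; dots mark values not well above background. siCont clones 2 and 3 are red for most genes (12 and 13 of the 14 other 2-cell genes above their median), while siCont clone 4 is red for 7 of 14.

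By the smallest p in siXist minus siCont, the 3 named genes of that list were Spz1, Gm5039 and Sp110. Spz1, a bHLH-zip transcription factor of the testis, read -5.78, -8.73, -9.03 and -8.89 in siXist clones 1 to 4, -4.55, -2.49, -3.91 and -2.16 in siCont clones 1 to 4, and -3.53, -8.22, -4.85 and -3.72 in IVF embryos 1 to 4, with a difference of siXist minus siCont of -4.83 ± 1.07 (SE; limma, adjusted p = 0.242). All siXist clones lay below all siCont clones, and siXist clone 1 was the only siXist clone well above background, so the size of this fitted difference rests on 3 readings at the level of background. Sp110, a nuclear body protein, read 6.11, 4.59, 4.91 and 7.75 in siXist clones 1 to 4, 8.11, 8.46, 9.03 and 7.09 in siCont clones 1 to 4, and 8.65, 8.85, 7.92 and 8.67 in IVF embryos 1 to 4, with a difference of siXist minus siCont of -2.33 ± 0.69 (adjusted p = 0.297). Gm5039 had a difference of -1.09 ± 0.30 (adjusted p = 0.278).

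Genes known to act on the 2-cell programme were read from fixed lists. Of 12 activators, 8 had a probe and 7 were tested: 0 were called in siXist minus siCont, 1 was lower with an unadjusted p below 0.05 (against 9.5% of all features), and the median difference was -0.23, close to that of all features. The named genes were Nfya, a subunit of the CCAAT-binding factor NF-Y (-1.17, limma adjusted p = 0.304, 1 IVF array without a value), Nelfa, a subunit of the negative elongation factor (-0.67, adjusted p = 0.660), and Dppa4, a chromatin protein that acts upstream of Dux in mouse embryonic stem cells (-0.27, adjusted p = 0.723). Of 19 repressors all 19 were tested: 0 were called, 3 had an unadjusted p under 0.05 (all lower, against 9.5%), and the median difference was -0.31. The named genes were Rif1, which restrains 2-cell genes in mouse embryonic stem cells (-1.03, adjusted p = 0.297), Rnf2, the catalytic subunit of the Polycomb complex PRC1 (-1.11, adjusted p = 0.313), and Pcgf6, a subunit of a variant PRC1 (-0.90, adjusted p = 0.346). In the 3 comparisons with IVF embryos 0 activators and 0 repressors were called by limma. At an unadjusted p under 0.05 these held 0 activators, and of 19 repressors 4 in siXist minus IVF (13.9% of all features), 1 in siCont minus IVF (13.6%) and 3 in all clones minus IVF (13.4%), each of them lower.

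Markers of lineage and of other cells were read beside these values. Cdx2, a trophectoderm factor, read 3.83, 3.04, 1.34 and 3.20 in siXist clones 1 to 4, 3.44, -2.93, -7.87 and 3.18 in siCont clones 1 to 4, and 4.37, 4.90, 5.13 and 4.48 in IVF embryos 1 to 4. Gata3, another trophectoderm factor, read 4.01 to 4.42 in siXist clones, 4.84, 2.28, 1.14 and 4.19 in siCont clones 1 to 4, and 3.55 to 4.71 in IVF embryos. siCont clones 2 and 3, the embryos with the highest Tcstv1 and Tcstv3, were the lowest of the 12 for both markers, which were picked from the list after their values had been seen; the relation was not tested. The trophectoderm genes Krt8 and Tead4 of the list did not share this order. siCont clone 2 was the highest of the 12 for the keratin Krt8 (7.08). For the factor Tead4 siCont clone 3 was the highest (5.05) and siCont clone 2 among the lowest (3.36). In siCont minus IVF the differences were -5.77 for Cdx2, -1.03 for Gata3 and -0.57 for Tfap2c, another factor of the list. They were 1.08 for the keratin Krt18, 0.38 for Tead4 and 0.20 for Krt8, with 0 of all these genes called. Summed over the 9 morula markers with a probe, the level was 7.61 to 8.28 in siXist clones, 7.78 to 8.27 in siCont clones and 7.74 to 8.32 in IVF embryos (log2 of the summed scaled signal). Of these 9, 0 were called in any comparison by limma, and 0 to 4 passed an unadjusted p of 0.05. The 4 were in siCont minus IVF and include Sox2 (-5.25), which passed the filter only through the IVF embryos.

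Of 9 Sertoli markers, all with a probe, 6 were tested and 0 called in any comparison, and Amh and Wt1 did not pass the filter. Their summed level was -0.40 to 1.92 in siXist clones, 0.66 to 2.41 in siCont clones and 0.98 to 2.01 in IVF embryos. Of 6 cumulus markers 2 were tested and 0 called, with 1.72 to 2.82 in siXist clones, 1.95 to 3.10 in siCont clones and 0.92 to 2.16 in IVF embryos. Of 6 sperm markers 4 were tested and 0 called, with -3.74 to -1.25 in siXist clones, -2.73 to -0.56 in siCont clones and -3.51 to -1.65 in IVF embryos. At an unadjusted p under 0.05, where 13.4% to 13.9% of all features passed in a comparison, up to 3 of 6 Sertoli, 1 of 2 cumulus and 2 of 4 sperm markers passed. The cumulus marker was Ptx3, a protein of the cumulus matrix, which read -8.61, -8.74 and -8.89 in siXist clones 1 to 3, -3.46, -5.39, -5.37 and -3.74 in siCont clones 1 to 4, and -8.29, -5.17, -8.59 and -7.96 in IVF embryos 1 to 4. In siXist clone 4 Ptx3 was well above background, but its spot was dropped as an outlier, so this clone has no value and is not in the fit. The differences of Ptx3 were -4.26 in siXist minus siCont (limma, adjusted p = 0.134) and 3.02 in siCont minus IVF (adjusted p = 0.115), and it too passed the filter only through siCont clones. Of 11 oocyte markers 10 were tested, and their summed level was 3.49 to 4.58 in siXist clones, 4.57 to 5.23 in siCont clones and 3.15 to 3.86 in IVF embryos. Oosp1, an oocyte-secreted protein, was the only one of these markers called: it was higher by 2.43 in siXist clones than in IVF embryos (limma, adjusted p = 0.044) and by 1.95 in all clones than in IVF embryos (adjusted p = 0.045). At an unadjusted p under 0.05, 5 of 10 oocyte markers were higher in siCont minus IVF (Oog1, Oosp1, Npm2, Gdf9 and Zp2), against 13.6% of features in either direction, and 2 were lower in siXist minus siCont (Gdf9 and Npm2), against 9.5%. Of the 10 oocyte markers 8 lay lower in siXist minus siCont, against 60.2% of all features. In siCont minus IVF 8 lay higher, against 48.1% of all features. In these 2 comparisons this is the direction of 12 of the 14 other 2-cell genes. In siXist minus IVF the lists went opposite ways. There 7 of 10 oocyte markers lay higher (median 0.33), whereas 11 of the 14 other 2-cell genes lay lower (median -0.61). The part of maternal or cumulus RNA in the 2-cell gene values was not tested.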

How the data were processed

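Per the labels' protocols, TRIzol was used to extract RNA from single embryos, and the RNA was amplified linearly. Per the file headers, the intensity in the deposited scanner files was extracted by Agilent Feature Extraction 10.5.1.1 (grid on mm9). The authors' processed signal had the background subtracted and was detrended, with no scaling between arrays. The deposited log2 value table of the authors equals that signal in log2 with 1 constant added for each array and the median of each probe taken off; its scale and centring were found from the values, while the basis of the constants is unknown. Its column medians were 0.01, 0.54, -0.18 and -0.22 in siXist clones 1 to 4, -0.05, -0.72, -1.62 and -0.12 in siCont clones 1 to 4, and 0.56, -0.0069, 0.75 and 0.32 in IVF embryos 1 to 4.

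From the log2 processed signal, the 75th percentile over the array's non-control spots was subtracted, outlier spots were dropped and repeated spots averaged. Kept were 24857 of 41174 probes, each well above background on 3 or more of the 4 arrays of at least 1 class, and the kept probe with the highest mean stood for its gene. RefSeq (GRCm38.p6) named 26885 probes through unversioned accessions, with 18327 symbols and 0 probes carrying several. The fit used limma 3.58.1 (R 4.3.3) on all 12 arrays, estimating 1 mean for each class and sex, followed by eBayes. Tests were two-sided, with Benjamini-Hochberg adjustment over 19059 features (19052 against IVF, whose sexes had equal weight). The procedure was tested on simulated data. With 4 embryos per class, their number limits the precision.

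The members and lists (paralogues, other 2-cell genes, activators, repressors, and morula, Sertoli, cumulus, oocyte and sperm markers) were chosen with earlier results of these data known. Named were all members with every probe matched to them and the 5 features most like Zscan4c. From each of the first 4 lists, any called gene was named, or else the 3 with the smallest p in siXist minus siCont. Gm20767, AF067063, Tdpoz9, the features most like Tcstv3 and the markers named were picked after their values had been seen.

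The settings varied were the background correction (normexp, offset 50, then quantile), quantile scaling, the authors' table, the filter (none, or 6 arrays), averaging a gene's probes, a floor of -5.60 for dim values and array weights. Also varied were the arrays fitted (only the compared groups, male IVF embryos alone, 1 array left out), pooling the IVF sexes, robust eBayes with trend and blocking on the replicate number. A fit with each kept probe as its own feature was added after the data had been seen. Plots come from matplotlib 3.10.9 (Python 3.11.15).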

Additional observations from a re-analysis of the deposited data

Results flagged for a closer look

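Of 59 groups of 4 embryos checked for 1 embryo standing far from the other 3 by Dixon's ratio, 4 had one, and chance gives about 1 in 20. The second Zscan4c probe (A_52_P363843) read -6.20 in siXist clone 4, against -8.55 to -8.34 in the other siXist clones. Spz1 read -5.78 in siXist clone 1, against -9.03 to -8.73 in the others. Dppa4 read 3.73 in siXist clone 4, against 3.36 to 3.41 in the others. Nelfa read 1.62 in siXist clone 3, the embryo with the lowest Tcstv signals, against 3.96 to 4.14 in the others.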

How the results depend on the processing

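Under the 26 settings, 0 of 294 alternative values of Zscan4c, Tcstv1 and Tcstv3 passed the threshold in any of 4 comparisons (lowest adjusted p 0.215), and 287 kept their sign. Many of these signs could not turn, because several settings leave the difference itself unchanged. Examples are robust eBayes, the replicate block, pooled IVF sexes and leaving out an array of a class not compared. The count of 287 is therefore no measure of stability. In siXist minus siCont and siXist minus IVF no sign turned. For siXist minus siCont the values ran from -1.81 to -0.36 for Zscan4c (adjusted p 0.222 to 0.622), -5.44 to -2.38 for Tcstv1 (0.215 to 0.677) and -5.78 to -2.72 for Tcstv3 (0.253 to 0.609). With normexp and quantile normalisation they were -0.36 for Zscan4c, -2.65 for Tcstv1 and -2.72 for Tcstv3, and siXist minus IVF was -1.43 for Tcstv1 and -1.90 for Tcstv3; the cause was not tested.

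The authors' table turned siCont minus IVF for Zscan4c (-0.13), Tcstv1 (-0.34) and Tcstv3 (-0.45) and all clones minus IVF for Zscan4c (-0.34). Its constants per array shift the median of all features to 0.93 in siXist minus siCont, -1.13 in siCont minus IVF and -0.65 in all clones minus IVF. Relative to that median, siCont minus IVF was 1.00 for Zscan4c, 0.79 for Tcstv1 and 0.68 for Tcstv3, and siXist minus siCont was -1.33, -3.34 and -4.04 for the same genes. Leaving out 1 array gave -0.41 to 2.65 for Tcstv1 and -0.17 to 2.18 for Tcstv3 in siCont minus IVF, and -0.19 to 0.58 for Zscan4c in all clones minus IVF; siCont clone 3 and IVF embryo 3 gave the turned signs.

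Over all features, siXist minus siCont had 2 calls, 0 with normexp or with the replicate block, 19 with the authors' table, 12 with only the groups compared, 5 with pooled IVF sexes, 4 with quantile normalisation or the floor, and 8 to 56 without 1 array. Correlations of same-numbered embryos were -0.15 to 0.06, so the numbers were not taken to pair embryos; with the replicate block 0, 12, 13 and 47 features were called in siXist minus siCont, siCont minus IVF, siXist minus IVF and all clones minus IVF, and 0 members. Readings of Zscan4c, Zfp352, Spz1 in siXist clones and the dimmest Tcstv readings lie at or near background, where the size of a difference is uncertain.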
